A study of Mus musculus with 25 samples.

Results

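The nuclear-encoded genes of the mitochondrial respiratory chain and ATP synthase were followed through macrophage activation in 25 sense-strand RNA-seq libraries. Members were chosen by symbol alone, as every gene named Ndufa, Ndufb, Ndufc, Ndufs or Ndufv with a number, Sdha to Sdhd, Uqcr, Cox4 to Cox8, or Atp5. This gave 84 of the 24411 symbols in the tables: 37 of complex I, 4 of complex II, 8 of complex III, 18 of complex IV and 17 of complex V. Mouse bone marrow-derived macrophages (BMDM), grown from C57BL/6 marrow with 25 ng/ml M-CSF for 4 days, were left as control cells (n = 3, labelled as cultured for 4 h) or activated. One arm was primed with 100 U/ml IFN-γ and given 100 ng/ml LPS for 1, 4, 12 or 24 h (IFN-LPS, M1 conditions), and the other received 10 ng/ml IL-4 or IL-13 for 12 h (M2 conditions), with n = 3 in each group. RAW264.7, an established mouse macrophage line, was left as control or given 100 ng/ml LPS for 4 h without IFN-γ (n = 2 each). The single BMDM control was shared by every BMDM comparison with control, so those comparisons are not independent of each other. No label ties the replicates of a group to separate mice, so p-values measure the spread between these RNA samples. BMDM are a mixed primary culture and RAW264.7 is 1 transformed line, and in bulk RNA fewer cells of a type and less RNA per cell cannot be told apart.

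The respiratory chain passes electrons from NADH and succinate to oxygen and stores the energy as a proton gradient across the inner mitochondrial membrane. Complex I is the NADH dehydrogenase, complex II the succinate dehydrogenase that also works in the citric acid cycle, complex III the cytochrome bc1 complex, complex IV cytochrome c oxidase, and complex V the ATP synthase that spends the gradient. In macrophages, activation with LPS and IFN-γ is known for a turn towards glycolysis with a broken citric acid cycle and succinate build-up, and IL-4 for sustained oxidative metabolism. The chain is assembled from subunits of 2 genomes, and the subunits made from mitochondrial DNA have 0 symbols in these tables, so only the nuclear-encoded share of the chain is described.

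Each library held 1502618 to 2532496 sense counts once the ribosomal RNA precursor Rn45s was left out, and Rn45s itself took 20.1 to 39.8% of gene counts. Respiratory chain genes received 6726 to 26366 counts per library. Levels are given as CPM, a gene's counts relative to the size of its library, scaled with TMM factors (normalised CPM), and changes as log2 fold changes from edgeR's quasi-likelihood test, with the standard error (SE) and a p-value adjusted by the Benjamini-Hochberg method over all genes tested. A gene was called changed at an adjusted p of at most 0.01, whatever its fold. Of 7 macrophage markers, Cd68, Csf1r, Adgre1, Itgam, Lyz2 and Fcgr1 were present in every library, while Mertk was at 0 in all 4 RAW264.7 libraries. Markers of T cells were at 0 throughout. Nos2 reached 377 to 491 normalised CPM at 4 h of IFN-LPS, and Arg1, at 0 in the control, stood at 25.4 to 29.2 in the IL-4 and 30.6 to 43.0 in the IL-13 libraries. TMM factors fell from between 1.10 and 1.12 in the control to between 0.699 and 0.765 at 4 h of IFN-LPS. Scaling by library size alone therefore moved the median of all genes by −0.60 at 4 h, −0.38 at 12 h and −0.25 at 24 h, and all members moved with it, so the direction of a change is relative to the middle gene and was set against that median.

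Of the 84 members, 73 had enough counts to be tested in BMDM and 74 where RAW264.7 was included, the extra one being Ndufa2. The 10 members tested nowhere were mostly tissue-restricted isoforms. Cox7b2, Cox8b, Cox8c and Ndufs5 had 0 counts in the 47195700 sense counts of all libraries, which allows up to 0.0636 CPM (3 counts, counting error only). Ndufs5 encodes an accessory subunit present in every complex I, so its listing at 0 describes the annotation and counting as well as the cells. Cox6a2 had 69 counts, Cox7a1 54, Cox6b2 18, Cox4i2 4 and Ndufa4l2 2, against 34.2 or more normalised CPM in every library for Cox6a1, Cox7a2, Cox6b1, Cox4i1 and Ndufa4. The widely expressed forms of these subunits were thus the ones measured, with Cox4i1 at 45.3 to 77.5 normalised CPM in BMDM and 94.0 to 123 in RAW264.7.

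Complex V took the largest part of the counts and complex II the smallest. In the BMDM control, complex V held 0.150% ± 0.00761 (SD, n = 3) of counts, complex I 0.136% ± 0.00631, complex IV 0.0983% ± 0.00801, complex III 0.0654% ± 0.00365 and complex II 0.0411% ± 0.000621. All members together held 0.429 to 0.656% of counts in the BMDM libraries and 1.09 to 1.21% in RAW264.7, ranges that do not overlap. Among the BMDM groups the control had a mean share of 0.491%. The IFN-LPS groups had 0.523% (1 h), 0.439% (4 h), 0.507% (12 h) and 0.624% (24 h), IL-4 had 0.601% and IL-13 0.609%. These shares are of all counts without Rn45s and carry no TMM factor, so the dip at 4 h is on the scale on which the middle gene also fell.

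**Figure D1:**
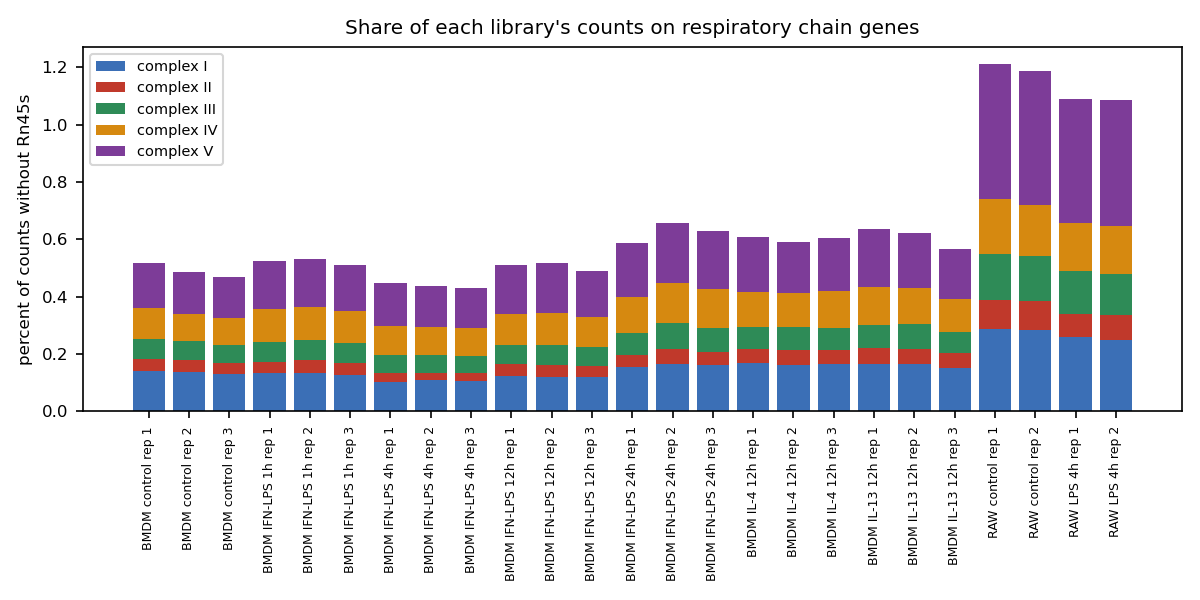
Percent of each library's sense counts without Rn45s that fell on respiratory chain genes, stacked by complex, 1 bar per library. The 21 BMDM bars end between 0.429 and 0.656% and the 4 RAW264.7 bars between 1.09 and 1.21%, and complex V is the largest part of the RAW264.7 bars.

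Atp5b, the catalytic beta subunit of ATP synthase, was the most abundant member, with a mean of 635 normalised CPM over the 25 libraries. Divided by the exon length of each gene, Cox8a, a small subunit of cytochrome c oxidase, stood highest of all members at 312 CPM per kilobase. The highest per length in their own complexes were Atp5b at 150, Uqcr10 of complex III at 130 and Sdhd of complex II at 102. Ndufb9 led complex I at 79.2, and Cox6b1 of complex IV, at 185, stood above Atp5b. Without the length correction the leading genes of complexes II and III were instead Sdha and Uqcrc1, which encode large core subunits.

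Promoter sequence is shown for 4 members whose levels behaved differently in the results below: Atp5b and Ndufa11 (higher with IFN-LPS), Ndufa4 (lower late in IFN-LPS) and Sdhd (far higher in RAW264.7). RefSeq promoters (GRCm38.p6) were at hand for 66 of the 84 members. Each line gives the 120 bases just upstream of the RefSeq start site, 5′ to 3′ on the gene's strand, with matches to the NRF1 core (GCGCANGCG or its reverse complement CGCNTGCGC) and the ETS core (CCGGAAG or CTTCCGG) in capitals. NRF1 and the ETS factor GABP are known regulators of nuclear genes for mitochondrial proteins.
Atp5b, chr10:128083187-128083306, plus strand: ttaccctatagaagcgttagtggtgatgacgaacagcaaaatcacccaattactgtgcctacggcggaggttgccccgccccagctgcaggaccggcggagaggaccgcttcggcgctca
Ndufa11, chr17:56717642-56717761, plus strand: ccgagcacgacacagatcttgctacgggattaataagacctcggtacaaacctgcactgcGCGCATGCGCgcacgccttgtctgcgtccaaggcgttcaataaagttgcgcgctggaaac
Sdhd, chr9:50603850-50603969, minus strand: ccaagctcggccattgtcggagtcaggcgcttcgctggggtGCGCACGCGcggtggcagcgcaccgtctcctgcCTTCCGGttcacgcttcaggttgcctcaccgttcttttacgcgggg
Ndufa4, chr6:11907451-11907570, minus strand: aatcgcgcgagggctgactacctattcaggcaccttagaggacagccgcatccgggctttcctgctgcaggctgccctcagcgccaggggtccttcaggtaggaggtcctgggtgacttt

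Over windows from 250 bases before to 50 after the start, searched on both strands, the NRF1 core was present in 20 of the 66 member promoters (30.3%), against 7.03% of the promoters of 27025 genes. The ETS core was present in 16 (24.2%), against 9.93%, and the YY1 core (AAGATGGCG or CGCCATCTT) in 7 (10.6%), against 1.64%. Among members tested in BMDM, the NRF1 core was found in 12 of 40 that were called higher at 24 h of IFN-LPS and in 7 of 21 that were not. The corresponding counts were 10 of 40 and 6 of 21 for the ETS core. For the YY1 core they were 4 of 40 and 3 of 21. These letters thus did not separate members called higher from members not called higher. Atp5b, which rose in every BMDM condition, and Ndufa4, which fell late in IFN-LPS, both lack the capitals in the stretches shown.

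With IFN-LPS, respiratory chain transcripts were higher than in the control from 1 h, with the number of called members growing at each time point. The control was labelled 4 h, so at 1, 12 and 24 h the labelled time differed along with treatment. Time in culture and treatment cannot be told apart in those comparisons. At 1 h, 15 of 73 members were called higher and 0 lower, where 15.9% of all tested genes were higher and 9.90% lower. At 4 h, 28 were higher and 1 lower, where 28% of genes were higher and 23.1% lower. At 12 h, 35 were higher and 2 lower, against 26.2% and 20.9% of genes, and at 24 h, 46 were higher and 1 lower, against 25% and 20.2%. The share of members called higher was near that of all genes at 1 h and above it at the later times, and the share called lower was far below it throughout. The changes were small: the median member changed by 0.23, 0.37, 0.38 and 0.57 (log2) at 1, 4, 12 and 24 h, where the median gene changed by 0.02, 0.00, 0.05 and 0.05. Of the 73 members, 62, 62, 57 and 64 lay above the gene median at the respective times. With the fold cutoff of the study for this arm (log2 change of at least 1.5), 0 members passed at any time point, against 7.05%, 22.4%, 17% and 14.8% of genes, in the order of time. By library size alone, 4 members were called higher and 0 lower at 1 h, 22 lower and 2 higher at 4 h, 10 lower and 7 higher at 12 h, and 4 lower and 26 higher at 24 h, while the gap between the median member and the median gene was kept. Without control replicate 2, 9 members were called higher at 1 h, and without control replicate 3, 23 were called higher at 12 h. DESeq2 called 20 higher at 12 h.

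Cell type markers moved in the same comparisons. Of the 7 macrophage markers, 2 were lower and 1 higher at 1 h, 4 and 3 at 4 h, 3 and 2 at 12 h, and 2 and 2 at 24 h. Cd68 went from between 805 and 892 normalised CPM in the control to between 283 and 420 at 24 h. Mertk went from between 76.2 and 83.8 in the control to between 145 and 180 at 4 h and between 25.5 and 28.6 at 24 h. Adgre1 rose from between 859 and 1026 in the control to between 3994 and 4651 at 24 h. Fcgr1, an Fc receptor gene, went from between 51.8 and 55.9 to between 500 and 530. The summed level of the 7 lay between 22316 and 23899 in the control. It lay lower at 1 h (between 17115 and 18096), 4 h (between 16556 and 19728) and 12 h (between 16936 and 21160), and higher at 24 h (between 27517 and 31646), without overlap with the control. The 5 neutrophil and precursor markers summed to 9.72 to 17.9 in the control and to between 20.6 and 32.9 over the activated libraries, with S100a8 called higher at each time and Ngp at 0 in the 24 h libraries. The 3 dendritic cell markers were at 0 in the control and summed to between 17.5 and 21.4 at 24 h. Only 1 of them, Ccr7, had enough counts to be tested (log2 change 8.06 at 24 h). The 3 fibroblast markers summed to 69.7 to 102 in the control and 63.2 to 84.2 at 24 h, where Col1a2 was called lower and Dcn higher. The part of these markers in the member changes was not tested.

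**Figure D2:**
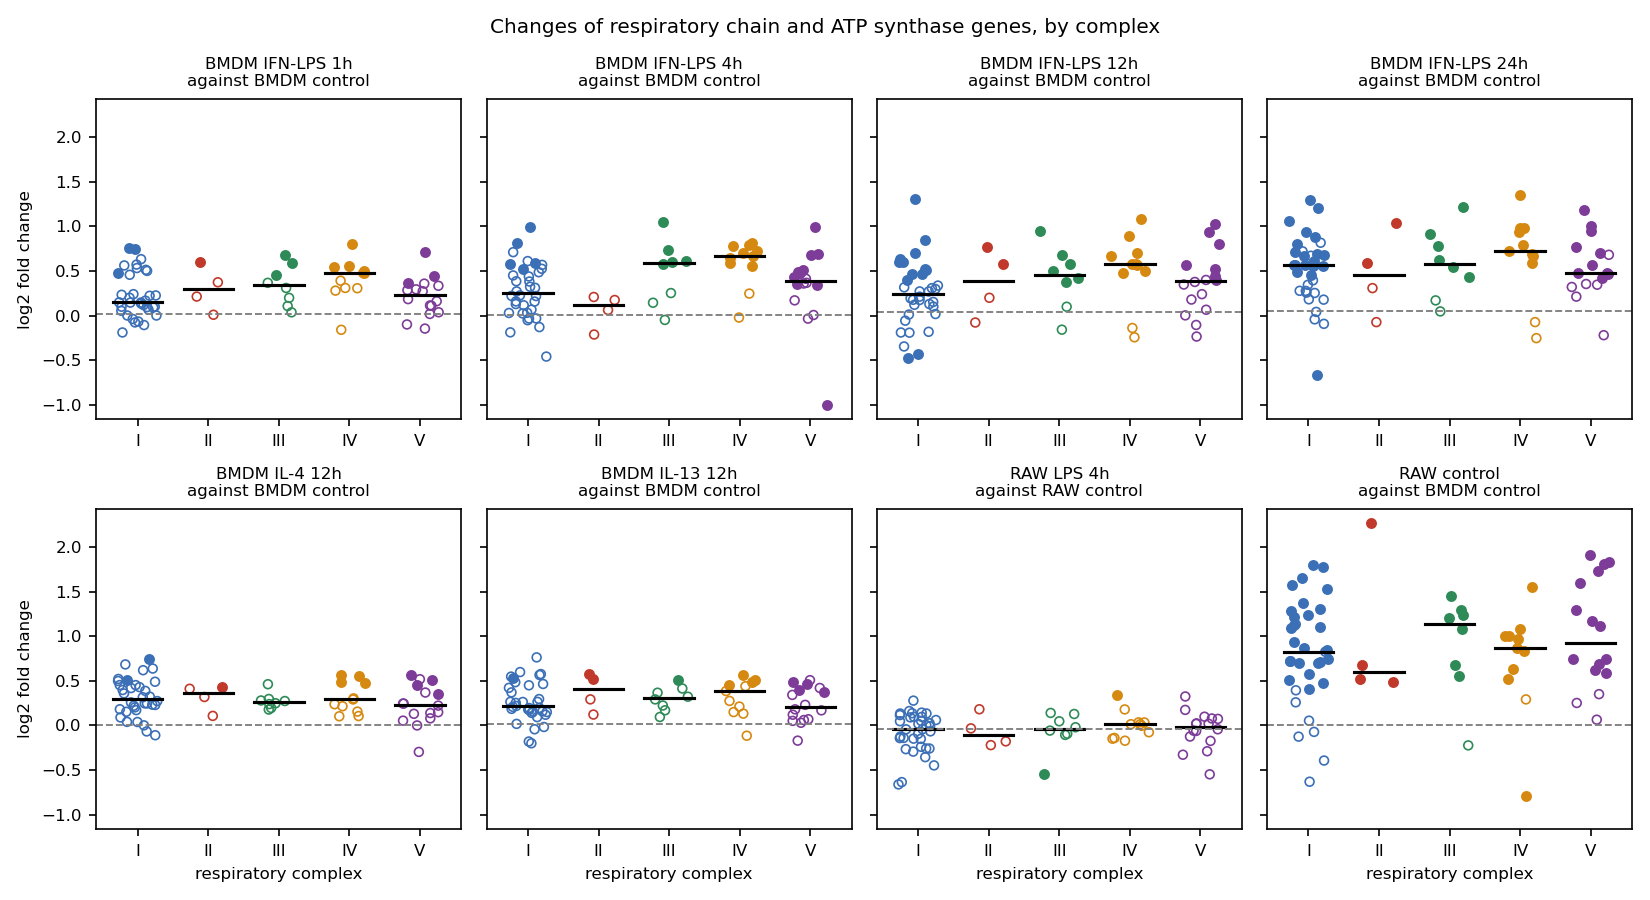
Log2 fold change of each tested respiratory chain gene in each comparison, grouped by complex, with filled points for genes called at an adjusted p of at most 0.01 and a solid line at the median of each complex. The dashed line is the median of all genes tested. Complex IV has the highest median at each IFN-LPS time point (0.48, 0.67, 0.57 and 0.73), and no member reaches 1.5 in any treatment of BMDM.

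Complex IV, which reduces oxygen, had the highest median change at each time, though differences between complexes were not tested. Of its 11 tested members, 5 were called higher at 1 h and 9 at 4, 12 and 24 h, with 0 lower. The share called higher was above that of all genes at each time (15.9, 28, 26.2 and 25%). Cox5a, a subunit on the matrix side of the oxidase, read 83.6, 56.7 and 64.3 normalised CPM in the control libraries and 97.0, 96.8 and 91.4 at 1 h. It read 118, 115 and 118 at 4 h, 135, 136 and 163 at 12 h, and 169, 177 and 177 at 24 h. Every activated library was above every control library. The log2 changes were 0.48, 0.78, 1.08 (SE 0.12, adjusted p = 1.5e-10) and 1.35 (SE 0.12, adjusted p = 6.4e-14), the largest change of any member at 24 h. Cox8a rose from between 119 and 137 normalised CPM in the control to between 242 and 252 at 24 h (log2 change 0.94, SE 0.11, adjusted p = 1.3e-10). Cox7b had the largest change of all members at 1 h, from 59.8, 65.9 and 50.1 normalised CPM in the control to 97.0, 109 and 100.0, without overlap (0.80, SE 0.13, adjusted p = 3.6e-06). The exceptions among the Cox genes were Cox4i1, with log2 changes of −0.16, −0.02, −0.24 and −0.25, and Cox7a2l, with 0.31, 0.25, −0.14 and −0.07, none of them called. Ndufa4, whose product is now placed in complex IV, is counted in complex I by its name and is described below. Cox4i1 carries the main regulatory subunit of the oxidase, while Cox7a2l acts in the assembly of respiratory supercomplexes.

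Complex III, which hands electrons to cytochrome c, had 3, 5, 6 and 6 of 8 members called higher at the 4 time points. Each share was above that of all genes (15.9, 28, 26.2 and 25% in the order of time). Uqcrq, a small accessory subunit, had log2 changes of 0.59, 1.05, 0.95 and 1.22 (at 24 h SE 0.12, adjusted p = 1.4e-12). The Rieske iron-sulphur subunit Uqcrfs1 rose early: it read 51.8, 61.0 and 45.9 normalised CPM in the control and 83.6, 84.7 and 86.4 at 1 h. Its change was 0.68 (SE 0.13, adjusted p = 3.3e-05) at 1 h and 0.43 (adjusted p = 0.0043) at 24 h, and the 24 h call was lost without control replicate 1 or 3 or without 24 h replicate 1 or 2. The core subunit Uqcrc1 was not called at 1 h (0.20, adjusted p = 0.15) and rose at 4 h (0.60, SE 0.11, adjusted p = 3.8e-06).

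In complex V, 3, 9, 7 and 10 of 16 members were called higher at 1, 4, 12 and 24 h. As a share of its members, this was near that of all genes at 1 h (15.9%). It was above that of all genes at 4, 12 and 24 h (28, 26.2 and 25%). Atp5b read 336, 311 and 317 normalised CPM in the control, 531, 534 and 513 at 1 h, and 625, 691 and 601 at 4 h. It then read 646, 676 and 648 at 12 h and 576, 668 and 686 at 24 h. The level was thus reached by 4 h and held. The changes were 0.71, 0.99, 1.03 and 1.00 (SE 0.09 each, adjusted p = 3.3e-13 at 24 h). Atp5o, part of the stalk of the synthase, rose later, with log2 changes of 0.27 (adjusted p = 0.21), 0.69, 0.94 and 1.18 (SE 0.15, adjusted p = 2.8e-09). Of the 3 genes for the identical mature c subunit of the membrane ring, Atp5g3 was called higher at all 4 times, Atp5g1 only at 24 h and Atp5g2 at none, and the differences between these genes were not tested. Atp5g1 lost its call without control replicate 1 or 2 or 24 h replicate 1 or 2. Atp5g3 lost its 1 h call without control replicate 2 or 3 or 1 h replicate 1 or 3, and its 24 h call without control replicate 2 or 24 h replicate 2. Atp5a1, the alpha subunit, was called only at 4 h, and lost that call without control replicate 2 or 3. The 1 lower call at 4 h was Atp5sl (−0.9998, SE 0.32, adjusted p = 0.006), which carries an Atp5 name by sequence likeness and is known as a complex I assembly factor. It was lost without control replicate 1 or 2 or without 4 h replicate 2 or 3.

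Complex I, which has the most members, had 3, 5, 11 and 19 of 34 called higher, with medians of 0.15, 0.25, 0.24 and 0.57. As a share of its members, this was below that of all genes at 1 and 4 h (15.9 and 28%), near it at 12 h (26.2%) and above it at 24 h (25%). Ndufa11, an accessory subunit of its membrane arm, read 25.9, 19.4 and 28.5 normalised CPM in the control and 35.1, 27.6 and 40.9 at 1 h. It read 48.7, 52.6 and 46.0 at 4 h, 36.8, 38.4 and 39.5 at 12 h, and 52.7, 59.9 and 69.2 at 24 h. The control and 1 h libraries overlapped, and those of the later times lay above the control. Its changes were 0.50 (adjusted p = 0.026), 0.99, 0.63 and 1.30 (SE 0.16, adjusted p = 1.8e-09). Ndufs4, an accessory subunit of the NADH-oxidising module, had its largest change at 12 h (1.30, SE 0.30, adjusted p = 1.8e-04), and Ndufa5, also of the matrix arm, at 24 h (1.21, SE 0.22, adjusted p = 5.7e-06). Of the core subunits that carry flavin and iron-sulphur centres, Ndufv1 rose at 24 h (0.68, SE 0.15, adjusted p = 1.6e-04) and Ndufs1 was called at no time point. Ndufb11 was called lower at 12 h (−0.43, adjusted p = 0.0094), and 10 of the 15 fits that left out 1 library lost that call, those without control replicate 1 or 3, any 1 h or 12 h library, or 24 h replicate 2 or 3.

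Within complex II, which links the chain to the citric acid cycle, the subunits differed. Sdhb, the iron-sulphur subunit, read 79.3, 83.2 and 86.5 normalised CPM in the control and 118, 139 and 121 at 1 h. It fell back to 104, 90.8 and 92.9 at 4 h and then reached 141, 139 and 145 at 12 h and 156, 178 and 177 at 24 h. Its changes against the control were 0.60, 0.21 (adjusted p = 0.14), 0.77 and 1.04 (SE 0.11, adjusted p = 2.2e-11). Sdhd, a membrane anchor, was called higher at 12 and 24 h (0.58 and 0.59). Sdha, the flavoprotein that holds the succinate-binding site, had changes of 0.01, −0.21, −0.08 and −0.07, and Sdhc, the other anchor, 0.21, 0.06, 0.20 and 0.31, none of them called.

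Ndufa4 went the other way from most members. It carries a complex I name but its product is now placed in complex IV. It read 64.5, 68.6 and 55.9 normalised CPM in the control, 60.2, 77.0 and 65.2 at 1 h, and 60.9, 81.3 and 68.3 at 4 h, overlapping throughout. It then read 45.5, 36.5 and 53.2 at 12 h and 36.9, 48.5 and 34.2 at 24 h, all below the control. The changes were −0.48 (SE 0.16, adjusted p = 0.0078) at 12 h and −0.67 (SE 0.15, adjusted p = 2.1e-04) at 24 h. The 12 h call was lost without control replicate 1 or 2 or without 12 h replicate 1 or 2, and the 24 h call was kept in all 15 fits that left out 1 library. AA467197, the mouse gene known as NMES1 whose product is a paralogue of NDUFA4, is not a member and was looked up after the Ndufa4 values were seen. It read 0.529, 1.08 and 0.527 normalised CPM in the control and 51.8, 55.2 and 56.1 at 1 h. It rose to 319, 370 and 372 at 4 h and 481, 475 and 636 at 12 h, and stood at 50.2, 79.4 and 65.4 at 24 h. With IL-4 it read 1.04, 1.65 and 4.14 and with IL-13 3.42, 7.17 and 12.1, and in the RAW264.7 libraries it stayed under 1.

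**Figure D3:**
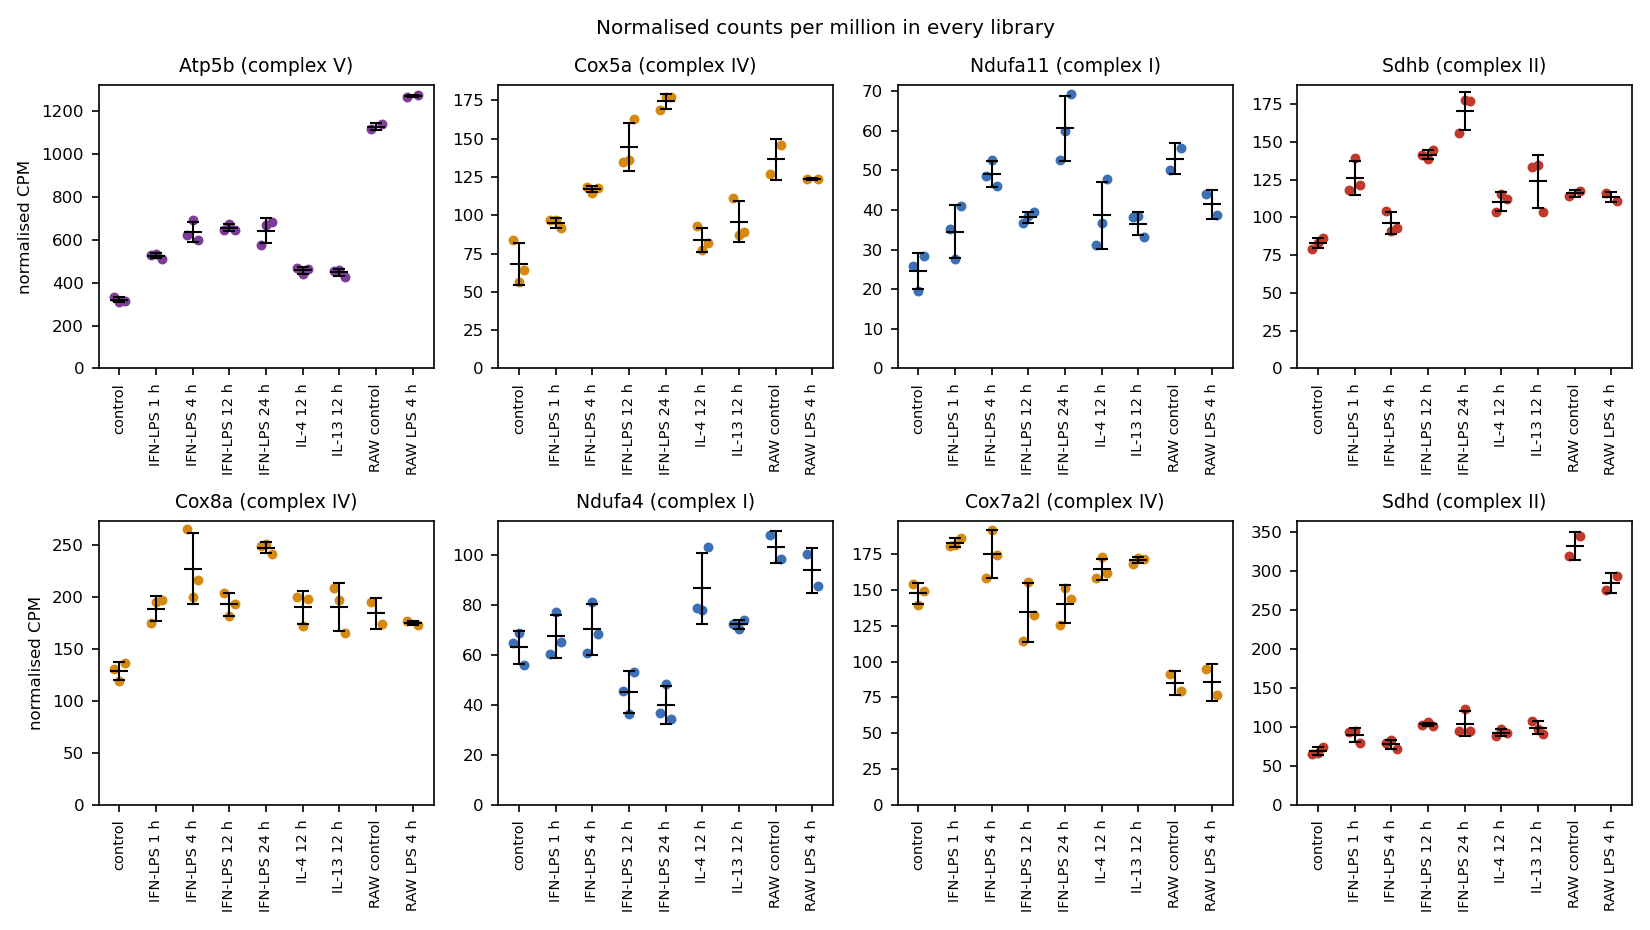
Normalised CPM of 8 respiratory chain genes in every library, with each library as a point and bars for the group mean and SD (n = 3 for BMDM, n = 2 for RAW264.7), each axis starting at 0. Atp5b, Cox5a and Ndufa11 lie above the control libraries from 4 h of IFN-LPS, Ndufa4 lies below them at 12 and 24 h, and Sdhd and Atp5b are highest in RAW264.7.

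The steps between successive time points do not use the control. From 1 to 4 h, 2 members were called higher and 2 lower of 73, where 20.8% of genes were higher and 17.8% lower. Uqcrq (0.46, adjusted p = 0.0015) and Uqcrc1 (0.41, adjusted p = 0.0014) rose, and Sdhb (−0.39, SE 0.12, adjusted p = 0.0054) and Atp5sl (−1.04) fell. From 4 to 12 h, 1 was called higher and 3 lower, against 16.5% and 19.2% of genes: Sdhb rose by 0.56 (SE 0.12, adjusted p = 1.1e-04), while Ndufa4 (−0.64), Ndufs8 (−0.64) and Cox7a2l (−0.39) fell. From 12 to 24 h, 11 were higher and 0 lower, against 4.27% and 9.81% of genes. The 11 spanned complexes I, III, IV and V and included Ndufa11 (0.67, SE 0.15, adjusted p = 8.3e-04), Ndufb7 (0.63), Ndufa9 (0.56) and Atp5j2 (0.55). By library size alone, 0 members were higher and 16 lower from 1 to 4 h, 12 higher and 0 lower from 4 to 12 h, and 21 higher and 0 lower from 12 to 24 h. Leaving out any 12 h library or 24 h replicate 2 or 3 took the last count to between 4 and 7, and DESeq2 called 5. Atp5sl lost its 1 to 4 h call without 1 h replicate 2 or 3 or 4 h replicate 2 or 3, Sdhb without 1 h replicate 2 or 4 h replicate 2 or 3, and Uqcrc1 without 1 h replicate 1. From 4 to 12 h, Ndufa4 lost its call without 4 h replicate 2 or 12 h replicate 2, Ndufs8 without 4 h replicate 1 or 3 or 12 h replicate 2, and Cox7a2l without 4 h replicate 2 or 3 or 12 h replicate 1 or 3; the rise of Sdhb was kept in all fits. From 12 to 24 h, Ndufa11 lost its call without 24 h replicate 3, Ndufb7 without 12 h replicate 2, and Ndufa9 in 12 of 15 fits that left out 1 library. The 24 h libraries stood apart from the earlier BMDM libraries of this arm in the share of counts on the antisense strand of Rn45s (0.0104 to 0.0162%, against 0.0386 to 0.122% in the control, 1, 4 and 12 h libraries), and its part in the 24 h results was not tested.

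With IL-4 and IL-13, fewer members passed the test, all upwards. With IL-4, 11 of 73 members were called higher and 0 lower, where 4.73% of genes were higher and 3.04% lower. With IL-13, 12 were higher and 0 lower, against 6.29% and 3.98% of genes. The median member changed by 0.27 with IL-4 and 0.26 with IL-13 where the median gene changed by 0.01 and 0.02, and 68 and 67 of 73 members lay above the gene median. With the study's fold cutoff for this arm (log2 change of at least 0.7), 1 member passed with IL-4, where 3.88% of genes did, and 0 with IL-13, where 5.45% did. The member was Ndufa12 (0.75, SE 0.18, adjusted p = 0.0029), a complex I accessory subunit, which lost its call without control replicate 1 or 2 or IL-4 replicate 1 or 2.

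Cox8a, Atp5b and Sdhd give the pattern at the level of single genes. Cox8a read 131, 119 and 137 normalised CPM in the control, 201, 172 and 199 with IL-4, and 209, 198 and 165 with IL-13, with no overlap between control and treated libraries (0.56 in both, adjusted p = 5.5e-05 and 3.6e-05). Atp5b read 471, 439 and 463 with IL-4 and 456, 462 and 429 with IL-13, above all control libraries (0.51 and 0.48, SE 0.08). Sdhd read 65.1, 67.0 and 74.9 in the control, 88.5, 97.8 and 92.2 with IL-4, and 108, 97.8 and 91.4 with IL-13. Its change was 0.43 (adjusted p = 0.0098) and 0.52 (adjusted p = 9.0e-04), and the IL-4 call was lost in 7 of 9 fits that left out 1 library, those of each control and each IL-4 library and that of IL-13 replicate 2. The IL-13 call was lost without control replicate 1. Sdhb rose with IL-13 (0.57, SE 0.11, adjusted p = 1.4e-04) and was not called with IL-4 (0.41, adjusted p = 0.011), and the direct comparison of the 2 cytokines gave 0.16 (adjusted p = 0.84).

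The count with IL-4 depended on single libraries: it was 4 without IL-4 replicate 1 or 3, 5 without control replicate 2 or 3, 7 without control replicate 1 or IL-4 replicate 2, and 18 and 17 without IL-13 replicates 1 and 3, which enter the fit only through its estimate of spread. With IL-13 it was 5 without control replicate 3 and 7 without IL-13 replicate 2. DESeq2 called 3 members with IL-4 and 4 with IL-13. The IL-4 and IL-13 libraries also held a lower share of antisense Rn45s counts (0.00603 to 0.0214%) than the control libraries, and the control was labelled 4 h where the cytokines were given for 12 h; the part of either in these changes was not tested.

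No member was called between IL-13 and IL-4. In the direct comparison, 0 of 73 members were called by edgeR in either direction and 0 by DESeq2, where 0.0973% of genes were higher and 0.0216% lower with IL-13 in edgeR. At an unadjusted p under 0.05 there was 1 member, and 650 of 9252 genes. The member was Ndufa4 (−0.26, SE 0.12, adjusted p = 0.69 in edgeR), with a 95% interval from −0.50 to −0.0135. The median member difference was −0.03 (log2). For Atp5b the difference was −0.03 with an SE of 0.08 and for Cox8a −4.0e-05 with an SE of 0.10, giving 95% intervals from −0.19 to 0.13 and from −0.19 to 0.19. The interval for Ndufs4, a low member, ran from −0.46 to 0.89.

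At 12 h the M1 and M2 conditions were compared directly. Their libraries also stood apart in the share of counts on the antisense strand of Rn45s. This share was at least 0.0827% in every 12 h IFN-LPS library and at most 0.0214% in every library given either cytokine. Its part in the differences below was not tested. Against IL-4, IFN-LPS gave 7 members higher and 2 lower of 73, where 22.6% of genes were higher and 19.9% lower. Against IL-13 it gave 8 higher and 3 lower, where 22.4% of genes were higher and 19.9% lower. Both counts are smaller shares of the members than the corresponding shares of all genes, and the median member differed by 0.07 and 0.06. The genes that did differ included Cox5a (0.78 against IL-4, SE 0.13, adjusted p = 2.9e-06, and 0.60 against IL-13), Cox7a2 (0.79 and 0.61), Atp5b (0.52 and 0.55) and Ndufs4 (1.06 against IL-4, adjusted p = 0.003). Atp5e, the small epsilon subunit of the synthase, was higher than with IL-13 (0.97, SE 0.27, adjusted p = 0.0026), and Uqcrq was higher than with IL-13 by 0.65. On the lower side stood Ndufa4 (−0.93 against IL-4, SE 0.15, adjusted p = 2.2e-06, and −0.67 against IL-13), Ndufb11 (−0.75 and −0.59) and, against IL-13, Ndufb10 (−0.94, SE 0.24, adjusted p = 0.0013). Ndufa4 read 78.6, 78.0 and 103 normalised CPM with IL-4 and 72.4, 70.1 and 73.8 with IL-13, above each of the 12 h IFN-LPS libraries. By library size alone these counts turned to 27 lower and 2 higher against IL-4 and 25 lower and 0 higher against IL-13, with the median of all genes shifted by −0.37 and −0.39. Ndufs4 lost its call against IL-4 without 12 h replicate 2 or IL-4 replicate 1, and Ndufb11 without IL-4 replicate 1. Against IL-13, Atp5e lost its call without 12 h replicate 2 or IL-13 replicate 1 or 3, Ndufb10 without 12 h replicate 1, and Ndufb11 without IL-13 replicate 1 or 2. Without 12 h replicate 3, 5 members were lower against IL-4, without IL-4 replicate 1 there was 1, and without IL-13 replicate 3, 5 were higher against IL-13.

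At rest, respiratory chain genes stood far higher in RAW264.7 than in BMDM. Of 74 members tested, 59 were called higher and 1 lower, where 34% of genes were higher and 33.3% lower, and the median member was higher by 0.84 where the median gene stood at 0.00. By complex, 26 of 35 members were higher in complex I, 4 of 4 in complex II, 7 of 8 in complex III, 9 of 11 in complex IV and 13 of 16 in complex V. By library size alone, 64 were higher and 1 lower.

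The largest difference was at Sdhd, which read 320 and 345 normalised CPM in RAW264.7 against 65.1, 67.0 and 74.9 in BMDM (2.27, SE 0.11, adjusted p = 1.3e-38). Per kilobase of exon, Sdhd stood at 270 CPM in RAW264.7, beside 266 for Atp5b and 298 for Cox8a, and at 56.0 in the BMDM control, beside 75.8 and 208. The other subunits of the same complex differed much less, by 0.68 for Sdhc, 0.52 for Sdha and 0.48 for Sdhb. In complex V, Atp5o (1.91, SE 0.14), Atp5f1 (1.83, SE 0.10) and Atp5b (1.81, SE 0.09) stood out, with Atp5b at 1116 and 1140 normalised CPM. The iron-sulphur subunit Ndufs8 led complex I (1.80, SE 0.15, adjusted p = 2.2e-21), from 34.9, 28.6 and 22.7 in BMDM to 93.7 and 106. Over all libraries, Ndufs8 had 12.3% of its counts on the antisense strand, the highest share of any tested member. By library size, its antisense counts were 8.15 to 12.5 CPM in the BMDM controls and 0.459 to 0.936 in the RAW264.7 controls. Only sense counts entered the main tests.

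**Figure D4:**
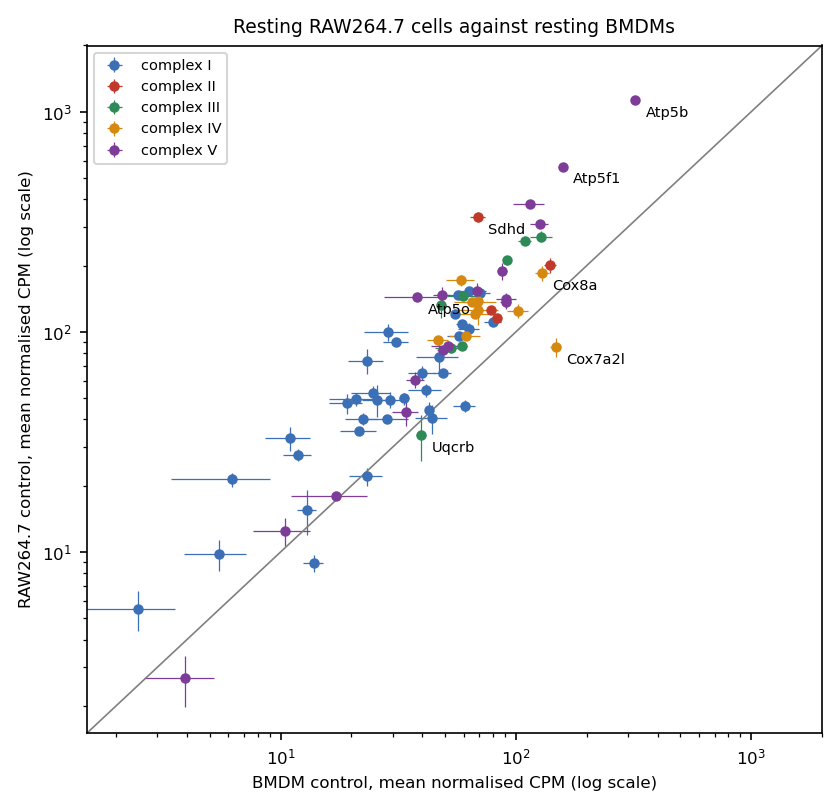
Mean normalised CPM of each respiratory chain gene in RAW264.7 control (y axis, n = 2) against BMDM control (x axis, n = 3), both axes on a log scale, coloured by complex, with SD bars and the line of equal levels. Members under 1.5 CPM on either axis are not drawn. Most points lie above the line, Sdhd furthest, and Cox7a2l lies below it.

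Cox7a2l was the 1 member lower in RAW264.7, at 91.2 and 79.3 normalised CPM against 154, 139 and 149 (−0.79, SE 0.12, adjusted p = 2.4e-09). Leaving out control replicate 3, or 4 h IFN-LPS replicate 1 or 2, which enter through the spread, gave 2 lower members. Cell origin, mouse strain, transformation, culture and activation state differ together between the 2 kinds of cell and cannot be told apart. Fibroblast markers also moved with this comparison: all 3 of the list were present in every BMDM library (Col1a1 at 4.19 to 33.7, Col1a2 at 16.7 to 54.3 and Dcn at 7.81 to 34.7 normalised CPM) and at 0 in the RAW264.7 controls. Of the 7 macrophage markers, 6 were lower in RAW264.7, with Mertk at 0. The part of these in the member differences was not tested.

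With LPS for 4 h in RAW264.7, the count of called members depended on the scaling. In edgeR with TMM factors, 1 of 74 was called higher and 1 lower, where 13.5% of genes were higher and 14.4% lower, and the median member changed by −0.03. By library size alone, 8 were lower and 0 higher, and with Lars2 and Mir6236 also left out, 11 were lower and 0 higher. With RLE factors, or with TMM factors computed within the compared libraries, 2 were higher and 0 lower. At an unadjusted p under 0.05 there were 11 members. With the study's cutoff for these cells (log2 change of at least 2), 0 members passed, where 3.2% of genes did. Cox4i1, which was not called in BMDM, read 94.0 and 97.0 normalised CPM in the control and 123 and 120 with LPS (0.35, SE 0.11, adjusted p = 0.0052). Uqcrb, a complex III subunit near the quinone site, read 39.6 and 28.2 in the control and 22.8 and 23.6 with LPS (−0.55, SE 0.18, adjusted p = 0.0083). The groups did not overlap for either gene, but the call on Cox4i1 was lost in 4 of 4 fits that left out 1 library and that on Uqcrb in 3 of 4, all but the one without control replicate 2, and DESeq2 called 0 members. Atp5b changed by 0.17 (SE 0.06, adjusted p = 0.022).

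The change with 4 h of LPS in RAW264.7 minus the change with 4 h of IFN-LPS in BMDM was tested as an interaction. It was lower than 0 for 19 of 74 members and higher for 0, where 16.8% of genes were lower and 10.5% higher, and the median member stood at −0.38. By complex, 8 of 11 members of complex IV and 5 of 8 of complex III were in this set, against 4 of 16 in complex V, 2 of 35 in complex I and 0 of 4 in complex II. Ndufa11 had the largest difference (−1.35, SE 0.24, adjusted p = 1.0e-06): it read 50.2 and 55.7 normalised CPM in the RAW264.7 control and 44.1 and 38.9 with LPS, where BMDM went from between 19.4 and 28.5 to between 46.0 and 52.6. Cox5a (−0.92, SE 0.18), Uqcrq (−0.91, SE 0.17), Cox8a (−0.89, SE 0.15) and Atp5b (−0.82, SE 0.13) differed in the same direction. Ndufa1, a small subunit of the membrane arm of complex I, differed by −1.05 (SE 0.31, adjusted p = 0.0042), with RAW264.7 going from 23.5 and 20.6 to 12.8 and 14.9; it lost its call without control replicate 2, 4 h IFN-LPS replicate 2, RAW264.7 control replicate 1 or RAW264.7 LPS replicate 1. Without RAW264.7 control replicate 1, or without RAW264.7 LPS replicate 2, 12 members were called, and DESeq2 called 10. By library size alone the median of all genes moved by 0.46 and 1 member was lower and 3 higher, so the direction is again relative to the middle gene. BMDM received IFN-γ with LPS and RAW264.7 did not, so cell type and treatment cannot be told apart here.

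**Figure D5:**
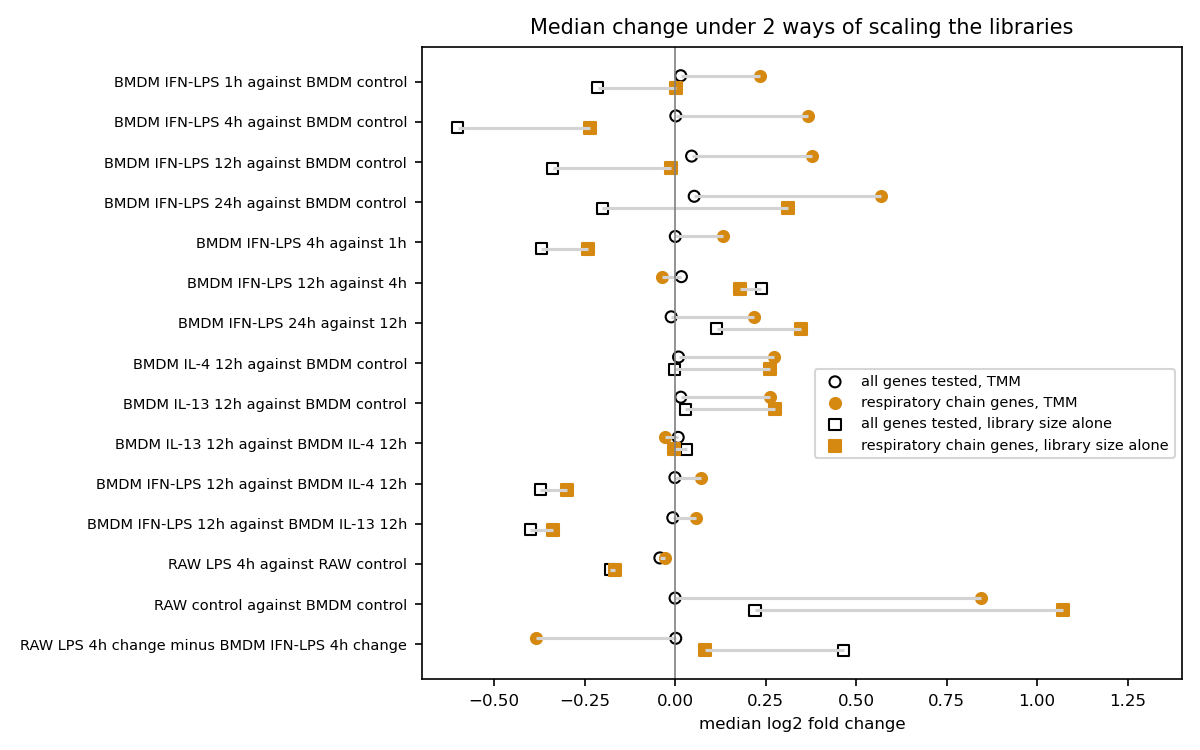
Median log2 fold change of all tested genes (open symbols) and of tested respiratory chain genes (filled symbols) in each comparison, scaled with TMM factors (circles) or by library size alone (squares). The grey bar between the symbols of a pair is nearly the same length under both scalings, while both symbols shift together, most at 4 h of IFN-LPS.

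Other mitochondrial gene groups showed where the chain stands in a wider setting. Of the mitochondrial ribosome, which translates the subunits encoded by mitochondrial DNA, 72 genes were tested in the IFN-LPS arm: 3 were called higher and 1 lower at 1 h, 11 and 4 at 4 h, 25 and 0 at 12 h, and 42 and 0 at 24 h. Over all genes, 15.9, 28, 26.2 and 25% were higher and 9.90, 23.1, 20.9 and 20.2% lower in these comparisons, so the share of ribosome genes called higher lay below that of all genes at 1 and 4 h and above it at 12 and 24 h. With IL-4 and IL-13, 2 of 73 were higher and 0 lower, below the 4.73 and 6.29% of genes that were higher. In resting RAW264.7, 66 of 75 were higher and 1 lower, where 34% of genes were higher and 33.3% lower. Assembly factors of the chain were called higher in 4, 5, 14 and 13 of 44 at 1, 4, 12 and 24 h and lower in 1, 5, 0 and 0. The import machinery had 1, 7, 8 and 11 of 21 higher and 0, 2, 0 and 0 lower, and the carriers of the inner membrane, with cytochrome c, 8, 9, 9 and 11 of 30 higher and 0, 4, 3 and 2 lower. Against the same shares of all genes, assembly factors called higher were below at 1 and 4 h and near at 12 and 24 h. Import genes were below at 1 h, near at 4 h and above at 12 and 24 h. Carriers were above at 1 and 24 h and near at 4 and 12 h.

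Some single genes of these groups changed far more than the subunits did. Cycs, the cytochrome c that shuttles electrons from complex III to complex IV, changed by 1.43, 2.44, 2.64 and 2.28 at 1, 4, 12 and 24 h, and by 0.86 with IL-4 and 1.05 with IL-13, and was higher by 2.81 in resting RAW264.7. Its interaction value was −2.52. Cyc1, the cytochrome of complex III that the symbol rule does not cover, changed by 0.48, 0.87, 0.64 and 0.87. Ucp2, an inner membrane carrier abundant in macrophages, fell by 0.53 at 4 h, fell by 1.46 at 12 h and fell by 1.80 at 24 h. Among regulators, Esrra, the nuclear receptor ERRα that acts on respiratory chain genes, was higher by 1.16, 1.48 and 1.37 at 4, 12 and 24 h, and Nrf1 by 0.95 at 4 h. The largest called fall among them was that of Pparg, with −3.61, −4.99 and −4.04 at 4, 12 and 24 h. The largest called rise at 4 h was that of Gabpb1 (1.79). Tfam, the mitochondrial DNA packaging factor, was not called at any time of IFN-LPS and was higher in RAW264.7 by 1.27. The coactivator Pprc1 was not called in the time course either, and Ppargc1a was too low to be tested. Across the regulator list, 2, 5, 3 and 2 of 18 were higher and 2, 5, 6 and 3 lower, and the share called higher at 4 h was near the 28% of all genes. The share called lower at 12 h was above the 20.9% of all genes. How this list differed from the subunits was not tested.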

How the data were processed

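Total RNA was depleted of ribosomal RNA and made into strand-specific libraries, which the authors trimmed with Trimmomatic 0.33 and aligned to mm10 with STAR 2.5.1 (submitters' processing notes). The authors deposited whole-number counts per gene from STAR, unnormalised, with an unstranded, a sense and an antisense column per library; the annotation release is not given in the sources used here. The sense counts were used. The no-feature row (62.7 to 69.1% of no-feature, ambiguous and gene counts), the other rows that name no gene and Rn45s were left out of library sizes. Genes of low count were removed with filterByExpr (minimum count 10), TMM factors were set once over 25 libraries, and robust quasi-likelihood models were fitted in edgeR 4.0.16 (R 4.3.3), 1 each for the IFN-LPS arm, the IL-4 and IL-13 arm, the 12 h conditions, RAW264.7, and the RAW264.7 and BMDM comparison; SE is the log2 change divided by the root of F. The fits were tested on simulated data. Per-length levels used GENCODE exon lengths (83 of 84 members).

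Members and gene lists were chosen with earlier results of these data known. Named genes were the leading member of each complex, up to 4 called members per direction and comparison whose groups do not overlap, paralogous isoforms, core subunits and a few regulators; 1 named gene is counted but not reported singly here. Alternatives were other scalings, DESeq2 1.42.0, no filter, unstranded counts, Rn45s kept, 1 fit of all libraries, a replicate block and leaving out each library. Scaling without Lars2 and Mir6236 and the fit without 24 h libraries were added after seeing the data. Replicate libraries differed by more than counting noise (chi-square per degree of freedom 1.30 to 4.53), so none was counted as a repeat of another.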

Additional observations from a re-analysis of the deposited data

Results flagged for a closer look

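The change with 4 h of LPS in RAW264.7 was below that with 4 h of IFN-LPS in BMDM for 19 of 74 members, by the interaction test. Of all genes, 16.8% were lower and 10.5% higher. By library size alone, 1 member was lower and 3 were higher, and DESeq2 called 10 lower. The 4 largest differences were at Ndufa11 (−1.35), Ndufa1 (−1.05), Cox5a (−0.92) and Uqcrq (−0.91). Treatment and cell type differ together here.

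Between successive IFN-LPS time points, edgeR's direct comparisons set apart Atp5sl (−1.04), Sdhb (−0.39), Uqcrc1 (0.41) and Uqcrq (0.46) from 1 to 4 h. From 4 to 12 h they set apart Ndufs8 (−0.64), Ndufa4 (−0.64), Cox7a2l (−0.39) and Sdhb (0.56). From 12 to 24 h they set apart Atp5j2 (0.55), Ndufa9 (0.56), Ndufb7 (0.63) and Ndufa11 (0.67). Ndufa9 lost its call in 12 of 15 fits that left out 1 library, those of every control, 12 h and 24 h library, 1 h replicates 1 and 3 and 4 h replicate 3. Sdhb is the only one of these genes with called changes in opposite directions in successive steps.

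Counts on the antisense strand did not enter the main tests. In 3 cases each library of a treated group held at least 3 antisense counts and lay above every control library: Atp5f1 with a mean of 10.3 antisense CPM in RAW264.7 given LPS for 4 h, Ndufb10 with 2.16 in the same group, and Sdha with 1.91 at 12 h of IFN-LPS. For Ndufb10 the lowest LPS library (1.39) was barely above the highest RAW264.7 control library (1.38). These antisense differences were picked from all members and were not tested. Over all members, 1491 counts were antisense against 309854 sense.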

How the results depend on the processing

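Scaling moved the counts most. By library size alone, members called higher and lower were 4 and 0 at 1 h of IFN-LPS, 2 and 22 at 4 h, 7 and 10 at 12 h, 26 and 4 at 24 h, 0 and 16 from 1 to 4 h, 12 and 0 from 4 to 12 h, 21 and 0 from 12 to 24 h, 2 and 27 against IL-4, 0 and 25 against IL-13, 0 and 8 for RAW264.7 LPS, and 3 and 1 for the interaction. With Lars2 and Mir6236 also left out they were 2 and 1, 2 and 29, 5 and 13, 18 and 4, 0 and 16, 11 and 0, 21 and 0, 0 and 30, 0 and 25, 0 and 11, and 6 and 1 in the same order, with 5 higher for IL-4 and 6 for IL-13. The sign turned by library size alone for Atp5a1 (−0.17), Cox6a1 (−0.0521), Cox7a2 (−0.0150) and Uqcr10 (−0.0247) at 4 h and Uqcrc1 (−0.0029) at 12 h. Without Lars2 and Mir6236 it turned for Atp5a1 (−0.23), Cox6a1 (−0.11), Cox6b1 (−0.0176), Cox7a2 (−0.0713), Uqcr10 (−0.0821), Uqcrc1 (−0.0547) and Uqcrc2 (−0.0540) at 4 h, Uqcr10 (−0.0281) and Uqcrc1 (−0.0718) at 12 h, and Uqcrc1 (0.0432) in the interaction.

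DESeq2 gave 20 higher and 1 lower at 12 h, 0 lower at 4 h, 1 lower from 1 to 4 h, 5 higher from 12 to 24 h, 3 higher with IL-4, 4 with IL-13, 5 higher against IL-13, 0 and 0 for RAW264.7 LPS and 10 lower in the interaction. RLE factors gave 4 higher from 1 to 4 h, 5 lower against IL-13, and 2 higher and 0 lower for RAW264.7 LPS. Keeping Rn45s gave 2 higher from 4 to 12 h, 5 lower against IL-13, 2 and 0 for RAW264.7 LPS and 2 lower in resting RAW264.7. TMM within each fit gave 2 higher from 4 to 12 h, 2 and 0 for RAW264.7 LPS and 2 lower in resting RAW264.7. Without the filter there was 1 lower at 12 h, 2 lower at 4 h and 0 lower for RAW264.7 LPS. In 1 fit of all libraries there were 2 higher from 4 to 12 h, 1 lower at 12 h, 11 higher against IL-4, 5 lower against IL-13, and 0 and 0 for RAW264.7 LPS. Unstranded counts gave 2 higher from 4 to 12 h, 1 lower at 12 h and 0 lower for RAW264.7 LPS, and the fit without 24 h libraries 2 higher from 4 to 12 h and 1 lower at 12 h. The cause of these shifts was not tested.

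Leaving out each library in turn, counts of higher and lower members ranged from 9 to 18 and 0 to 0 at 1 h, 20 to 28 and 0 to 1 at 4 h, 23 to 36 and 0 to 2 at 12 h, and 37 to 47 and 1 to 1 at 24 h. They ranged from 1 to 4 and 0 to 2 from 1 to 4 h, 1 to 2 and 1 to 3 from 4 to 12 h, and 4 to 13 and 0 to 0 from 12 to 24 h. For IL-4 they were 4 to 18 higher, for IL-13 5 to 15 higher, against IL-4 5 to 10 and 1 to 5, against IL-13 5 to 9 and 2 to 4, for RAW264.7 LPS 0 to 0 and 0 to 1, for resting RAW264.7 56 to 61 and 1 to 2, and in the interaction 0 higher and 12 to 21 lower. A single RAW264.7 library per group was assumed to vary like the other group.

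Same-numbered replicates did not deviate together (mean correlation 0.0145 over 63 pairs, lowest −0.0536), so the numbers do not pair the samples. With the replicate block there were 2 higher from 4 to 12 h, 2 higher for RAW264.7 LPS and 2 lower in resting RAW264.7; it moved no other count of members by more than 1.5 times.

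Depth limits the low members: 10 had too few counts for any test, and for low genes such as Ndufs4 and Atp5e the SE was 0.23 to 0.37 in BMDM.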
